A study of Mus musculus with 32 samples.

Results

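The Hox genes of the mouse were followed through the reprogramming of embryonic fibroblasts, as every gene column whose symbol is Hox, a cluster letter a to d and a paralog number. This rule took 39 of 24421 gene columns, 11 in the HoxA cluster, 10 in HoxB, 9 in HoxC and 9 in HoxD. By paralog number, 12 belonged to groups 1 to 4, 11 to groups 5 to 8 and 16 to groups 9 to 13. In cells that were not on the authors' list of irradiated feeder cells, 37 members had at least 1 unique molecular identifier (UMI, a tag that counts 1 captured transcript). Hoxa6 and Hoxc11 had none. A filter on low counts kept 32 members for the tests across genes and left out Hoxa6, Hoxa13, Hoxb1, Hoxc11, Hoxc12, Hoxd1 and Hoxd3.

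Hox genes encode homeodomain transcription factors that give cells a position along the head-to-tail axis and, for the posterior HoxA and HoxD genes, along the limb. Within each cluster the genes lie in the order in which they are used, with low-numbered genes active towards the head and high-numbered genes towards the tail and the distal limb. Fibroblasts keep the Hox pattern of the body site they came from, through Trithorax and MLL proteins that hold genes active and Polycomb proteins that hold them silent, and pluripotent cells keep most of the clusters silent.

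The study had 32 libraries in 16 groups, with replicates A and B in each. Mouse embryonic fibroblasts (MEFs) were the starting cells. Serum cultures (FBS) had doxycycline in embryonic stem cell medium without small molecules and were sampled at days 3, 6, 9 and 12. A2S cultures had doxycycline (2 ug/mL), SGC0946 (5 uM), ascorbic acid (50 ug/mL) and, 12 h later, 2i, and were sampled at days 2, 4 and 6. Ascorbic acid is a cofactor of enzymes that demethylate DNA and histones, SGC0946 inhibits the histone methyltransferase DOT1L, and 2i is CHIR-99021, an inhibitor of GSK3, with PD-0325901, an inhibitor of MEK. The A2, S2 and AS cultures lacked SGC0946, ascorbic acid and 2i in turn, and were sampled at days 4 and 6. Embryonic stem cells of the V6.5 line (ESCs) were profiled without treatment and after A2S for 2 days without doxycycline. Reprogramming cultures stood on irradiated MEFs. The labels name neither the factors that doxycycline induced nor the body region of the MEFs.

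Libraries held 138 to 431 kept cells and 1727490 to 8848775 UMIs, with a median per cell of 5240 to 23194.5 UMIs. Of 8334 barcodes, 684 were on the feeder list and left out, between 0% and 35.8% of a library, with the highest share in FBS day 3 A. The libraries shared 34 barcode sequences. Hox genes took 36248 of 105924717 UMIs. Cell labels were checked on marker lists. Summed fibroblast markers were at 11057 to 12006 CPM, UMI counts relative to library size, in MEFs and at 14.4 to 16.4 in ESCs, and summed pluripotency markers were at 0.339 to 2.00 and at 4917 to 5007. Levels below are CPM of the counts summed over a library, scaled with TMM factors, given as A and B. A 3' UMI is counted once per transcript whatever the transcript's length, so length does not set the order of genes. Differences between genes in 3' capture or read assignment were not assessed, so orders of genes are approximate. Libraries are summed over cells, and such a sum cannot tell fewer cells of a type from less RNA per cell. Folds are log2 values ± SE from edgeR's quasi-likelihood test over n = 2 libraries per group. A gene is "called" where its p, adjusted over 13229 genes tested by Benjamini and Hochberg, is under 0.05. The labels do not say that A and B were separate cultures, so a p-value here speaks of the spread between the libraries analysed, and that spread may be technical. Where a group had no UMI, the fold is a bound against 3 UMIs over the group. With 1 to 3 UMIs, a ratio of UMIs relative to library size is given with its 95% counting interval, which leaves out the spread between libraries.

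By the GENCODE M21 annotation of mm10, all 39 members are protein-coding. HoxA, with Hoxa2 (chromosome 6, 52162417 to 52164831) and Hoxa13 (52257694 to 52260880), lies on the minus strand. HoxB runs from Hoxb13 (chromosome 11, 96194316 to 96197447) to Hoxb1 (96365752 to 96368256) on the plus strand. HoxC runs from Hoxc13 (chromosome 15, 102921103 to 102928814) to Hoxc4 (103018934 to 103036852), and HoxD from Hoxd13 (chromosome 2, 74668310 to 74671599) to Hoxd1 (74762980 to 74765142), both on the plus strand. The exons of 15 tested members overlap those of another gene, 1 example being Hoxc5 and Hoxc10. The sources used here do not say how the counting treated such overlaps or the strand, so values of Hoxa11, Hoxc5, Hoxc10 and Hoxd4, among others, may hold reads of a neighbour.

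Hox promoters are known for their density of CpG dinucleotides, and 3 windows of 250 bases before a RefSeq start show the range among members with different courses in these data. Hoxd13 and Hoxd8 are HoxD genes that moved in opposite directions with SGC0946 at day 4, and Hoxa9 was not called between A2S day 6 and MEFs. Sequences are from RefSeq on GRCm38.p6, read in the direction of the gene, with CpG dinucleotides in capitals. They are Hoxd13 at chr2:74667975-74668224 on the plus strand with 31 CpG, Hoxd8 at chr2:74704365-74704614 on the plus strand with 6, and Hoxa9 at chr6:52227371-52227620 on the minus strand with 3, before 1 of its starts.
Hoxd13: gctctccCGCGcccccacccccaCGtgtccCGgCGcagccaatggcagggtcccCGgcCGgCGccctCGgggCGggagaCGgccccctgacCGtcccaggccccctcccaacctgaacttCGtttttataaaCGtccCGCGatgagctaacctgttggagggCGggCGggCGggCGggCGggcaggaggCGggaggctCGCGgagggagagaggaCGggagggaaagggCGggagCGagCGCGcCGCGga
Hoxd8: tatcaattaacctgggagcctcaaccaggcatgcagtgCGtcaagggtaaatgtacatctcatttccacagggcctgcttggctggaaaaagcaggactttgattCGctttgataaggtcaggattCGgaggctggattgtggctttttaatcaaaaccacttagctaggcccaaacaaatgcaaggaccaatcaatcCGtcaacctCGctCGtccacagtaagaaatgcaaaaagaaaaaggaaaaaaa
Hoxa9: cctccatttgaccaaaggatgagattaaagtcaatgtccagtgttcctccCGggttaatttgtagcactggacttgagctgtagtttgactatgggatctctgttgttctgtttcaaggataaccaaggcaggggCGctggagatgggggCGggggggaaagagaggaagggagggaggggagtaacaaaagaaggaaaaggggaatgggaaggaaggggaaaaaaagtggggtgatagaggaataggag

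The RefSeq table gave 24 such windows for 22 members. Their median was 12.5 CpG, from 2 to 35, against a median of 6 over all 32851 windows of the table. The letters TGATTNAT, the joint motif of a PBX and a HOX protein, stood on either strand of 2 of the 24 windows (8.33%) and of 2.82% of all windows. Such a match is a description of these letters only.

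In MEFs, members of all 4 clusters were present and the summed level of all Hox genes was 467.9 ± 16.9 CPM (SD, n = 2), with 479.9 in A and 455.9 in B. HoxC held 144.8, HoxB 132.5, HoxA 102.3 and HoxD 88.2. Groups 5 to 8, the trunk genes, held 192.6 CPM, groups 9 to 13 held 143.0 and groups 1 to 4 held 132.3. The highest member was Hoxc8, a thoracic gene, at 46.5 and 39.1 CPM. Next came Hoxd8 at 41.6 and 35.2 and Hoxc6, a gene of the upper trunk and forelimb, at 42.8 and 33.3. These 3 genes overlapped in their libraries, so their order is not resolved. Hoxb2, a hindbrain gene, had 33.8 and 35.7 CPM, and its range overlapped that of Hoxd8. Hoxd13, the most posterior HoxD gene and a gene of digits and genitalia, was lower than those, at 27.7 and 30.7, and its range overlapped that of Hoxb3 at 28.0 and 25.2. Hoxa10, at 22.4 and 23.3, and Hoxc10, at 20.5 and 22.8, overlapped, and Hoxa9 stood just below them at 19.7 and 18.3. Low members included Hoxd4 at 1.87 and 1.73 and Hoxd9 at 1.70 and 1.87.

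**Figure D1:**
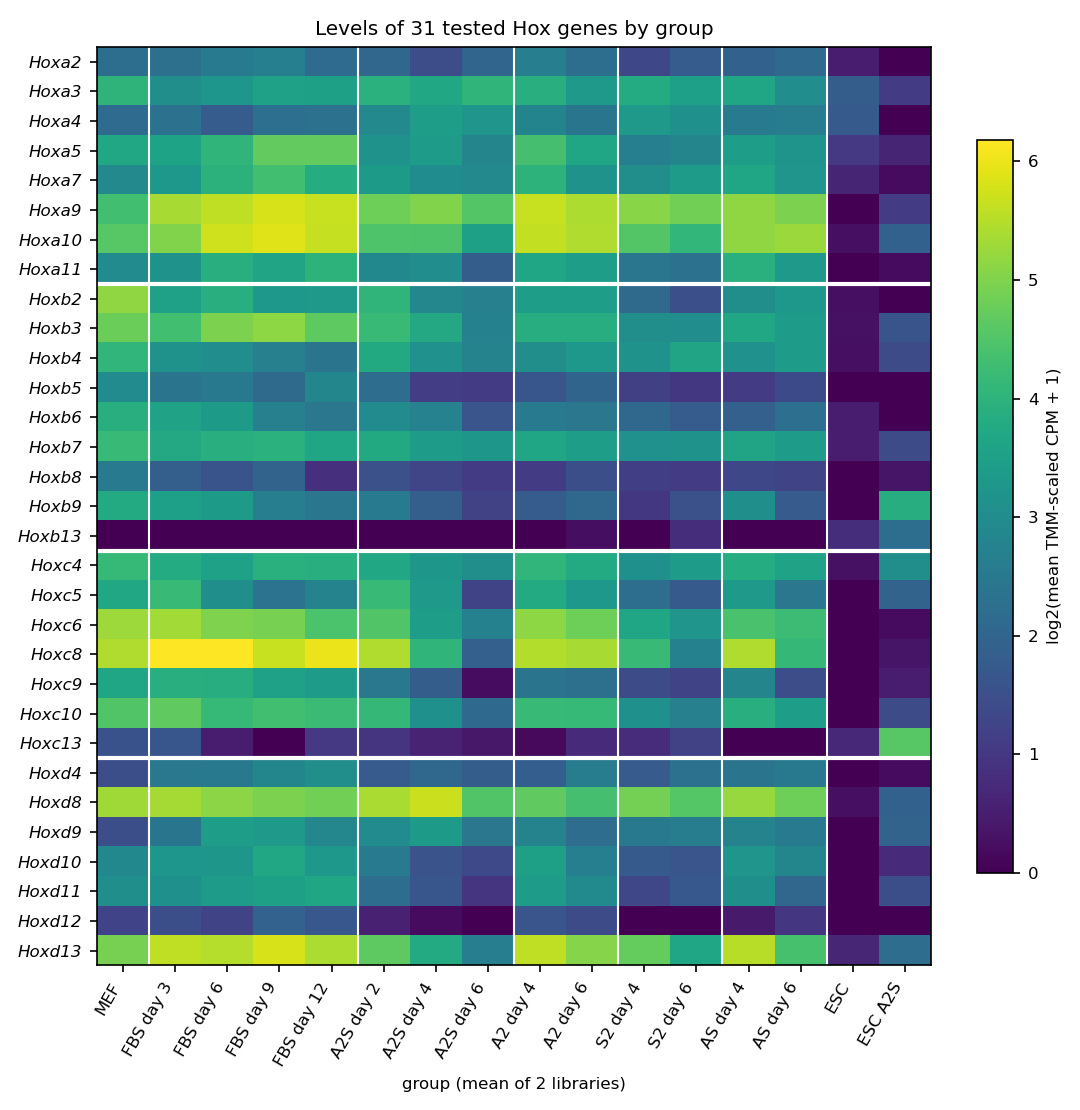
Heatmap of 31 tested Hox genes (rows, by cluster and paralog number) in 16 groups (columns), with colour for log2 of the mean TMM-scaled CPM of 2 libraries plus 1. Dark is low and yellow is high: HoxB and HoxC rows darken from MEF to A2S day 6 while Hoxa9 and Hoxd8 stay green, and the ESC column is dark in most rows.

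The comparison of ESCs with MEFs gave the end points between which reprogramming moves. Of 32 tested members, 28 were lower in ESCs and 1 was higher, while 36.4% of all genes tested were lower and 35.6% higher (72% either way). The median over members was -6.38 on the log2 scale, against 0 over all genes. The summed Hox level in ESCs was 19.3 and 21.4 CPM. Hoxc8 had 567 UMIs in MEFs and none in ESCs and was at least 71.8-fold lower. Hoxc6 was at least 63.6-fold, Hoxc10 at least 37.0-fold, Hoxa9 at least 32-fold and Hoxb9 at least 21.4-fold lower, each with no UMI in ESCs. Single UMIs remained for Hoxd8 (ratio 0.00517, 0.000131 to 0.0289) and Hoxb2 (ratio 0.00564, 0.000142 to 0.0316), and 3 for Hoxd13 (ratio 0.0201, 0.00413 to 0.0592).

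What Hox RNA the ESCs held came mostly from HoxA, which took 80.6% of it. Hoxa4 was at 2.10 and 2.59 CPM in ESCs against 3.05 and 3.87 in MEFs and was not called. Hoxa3 was at 2.52 and 2.59 against 13.6 and 16.7 CPM, 5.92-fold lower (-2.55 ± 0.34, edgeR quasi-likelihood adjusted p = 7.85e-08). Hoxc13 was not called either, with 3 UMIs in ESCs. The 1 member higher in ESCs, Hoxb13, rested on 4 UMIs against none and lost its call when a library was left out, as did Hoxd12 among the lower ones.

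In the serum cultures the summed Hox level did not decline: it was 496.9 CPM at day 3, 523.3 at day 6, 531.4 at day 9 and 481.2 at day 12, against 467.9 in MEFs. The clusters took different courses under this sum. HoxA went from 102.3 CPM in MEFs to 123.4, 166.8, 197.5 and 178.0 over the 4 days, and HoxB from 132.5 to 64.3 at day 12. At day 12, groups 9 to 13 held 216.4 CPM against 143.0 in MEFs, and groups 1 to 4 held 86.2 against 132.3.

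At day 3, 5 members were higher than in MEFs and 3 were lower, where 18.2% of all genes tested were higher and 22.5% lower (40.6% either way). Hoxb2 was at 9.20 and 12.2 CPM against 33.8 and 35.7, so that the groups stood far apart (-1.70 ± 0.29, edgeR quasi-likelihood adjusted p = 1.97e-05). Hoxa9, a posterior HoxA gene, was at 31.9 and 49.7 against 19.7 and 18.3 (1.10 ± 0.19, edgeR adjusted p = 2.62e-05). Hoxc8 was at 68.7 and 73.8 against 46.5 and 39.1 (0.74 ± 0.17, edgeR adjusted p = 0.00091). These 3 calls, and that of Hoxa3 (lower, -1.04), held whichever library was left out, and 4 did not. The number called was 5 without MEF replicate A and 14 with the listed cells kept.

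At day 12, 8 members were higher than in MEFs and 7 lower, against 26% and 28.7% of all genes tested (54.7% either way). Marker genes were summed as well: fibroblast markers summed to 5557 to 6066 CPM against 11057 to 12006 in MEFs, pluripotency markers to 377 to 443 against 0.339 to 2.00, and macrophage markers to 12.5 and 204 in its 2 libraries, with 6 of 7 tested called higher than in MEFs. Their part in the Hox differences was not tested. The directions divided by cluster: HoxA had 5 higher and 0 lower of 9, HoxB 0 higher and 5 lower of 9, HoxC 1 and 2 of 7, and HoxD 2 and 0 of 7. Their median folds were 1.02, -1.56, -0.30 and 0.64. Hoxa9 was at 47.9 and 50.9 CPM, 2.60-fold above MEFs (1.38 ± 0.20, edgeR adjusted p = 1.12e-06). Hoxa10, a gene of the lumbar trunk and upper hindlimb, was at 34.2 and 63.5 against 22.4 and 23.3 (1.11 ± 0.20, edgeR adjusted p = 1.88e-05). Both libraries were above both MEF libraries, with B the higher by far. Hoxa5 (27.4 and 22.7 against 13.1 and 10.9), Hoxa7 (11.4 and 15.1 against 6.62 and 6.54) and Hoxa11 (17.1 and 12.6 against 5.77 and 8.14) rose as well. In HoxD, Hoxd4 rose from 1.87 and 1.73 to 5.70 and 9.07, and Hoxd9 from 1.70 and 1.87 to 8.55 and 4.03.

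The HoxB genes that fell by day 12 included Hoxb2, at 9.70 and 8.56 CPM and 3.81-fold below MEFs (-1.93 ± 0.34, edgeR adjusted p = 1.55e-05). Hoxb4, a gene also known from blood progenitors, was at 2.85 and 5.54 against 16.1 and 15.3, with no overlap (-1.87, edgeR adjusted p = 0.000179). Hoxb6 (-1.58) and Hoxb9 (-1.56) were lower too, and Hoxb8 was down to 3 UMIs (ratio 0.171, 0.0343 to 0.522). In HoxC, Hoxc6 was at 18.8 and 22.7 against 42.8 and 33.3 (-0.86), while Hoxc8 was at 72.4 and 52.9 (0.55). Calls of Hoxa5, Hoxa9, Hoxa10, Hoxb2, Hoxb4, Hoxb6, Hoxc6 and Hoxd4 held whichever library was left out. Between day 3 and day 12, 3 members were higher (Hoxa5, Hoxa10, Hoxa11) and 5 lower (Hoxb6, Hoxb9, Hoxc5, Hoxc6, Hoxd8), against 22.9% of all genes each way (45.8% in all). That count was 5 without FBS day 3 A or without FBS day 12 B, and Hoxa5 (1.17), Hoxc5 (-1.53) and Hoxc6 (-0.90) were called in each case.

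Feeder cells are irradiated fibroblasts, and the Hox pattern of listed feeder cells differed from that of the MEF libraries. In 5 libraries with at least 50 listed cells, 35 members could be compared with MEFs on CPM of library totals. These were A2S day 2 A and B, FBS day 3 A and B and treated ESC A. Feeder origin, irradiation and culture medium therefore cannot be told apart here. In those feeders 6 members were above both MEF libraries in every case, 16 were below and 13 overlapped. Hoxd13 had a median of 189.6 CPM in feeders (130 to 283) against 23.3 and 26.0 in MEFs, and Hoxa9 31.8 (20.7 to 37.4) against 15.5 and 16.6. Hoxb2 was at 0 to 3.65 in feeders against 28.5 to 30.3, and Hoxc8 at 0 to 17.3 against 33.1 to 39.2. Of the 8 members higher in FBS day 12 than in MEFs, 3 were above MEFs in feeders, 1 was below and 4 overlapped. All 7 members lower at FBS day 12 were below MEFs in feeders. The part that feeder cells missing from the list have in these differences was not tested.

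In A2S the Hox clusters declined by day 6, and did so unequally. The summed level was 361.4 and 402.3 CPM at day 2, 284.9 and 312.5 at day 4, and 172.2 and 176.2 at day 6, each pair of libraries below the pair before it. HoxC went from 144.8 CPM in MEFs to 115.5, 54.4 and 20.9. HoxB went from 132.5 to 74.8, 47.0 and 31.0, and HoxD from 88.2 to 36.5 at day 6. HoxD fell late in cells with no UMI of the pluripotency gene Nanog or the epithelial gene Epcam, by CPM of their own totals. There it was at 77.0 and 72.8 in MEFs and at 85.2 and 86.6 on day 2. Later it was at 92.7 and 91.7 on day 4 and at 47.8 and 58.6 on day 6. HoxA was at 107.3, 115.7 and 85.7 CPM, against 102.3 in MEFs. At day 6 the ratio to MEFs was 0.838 for HoxA, 0.414 for HoxD, 0.234 for HoxB and 0.145 for HoxC, and HoxA held 49.2% of the Hox RNA against 21.9% in MEFs. Summed fibroblast markers fell from 11057 to 12006 CPM in MEFs to 924 to 1152 at A2S day 6.

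**Figure D2:**
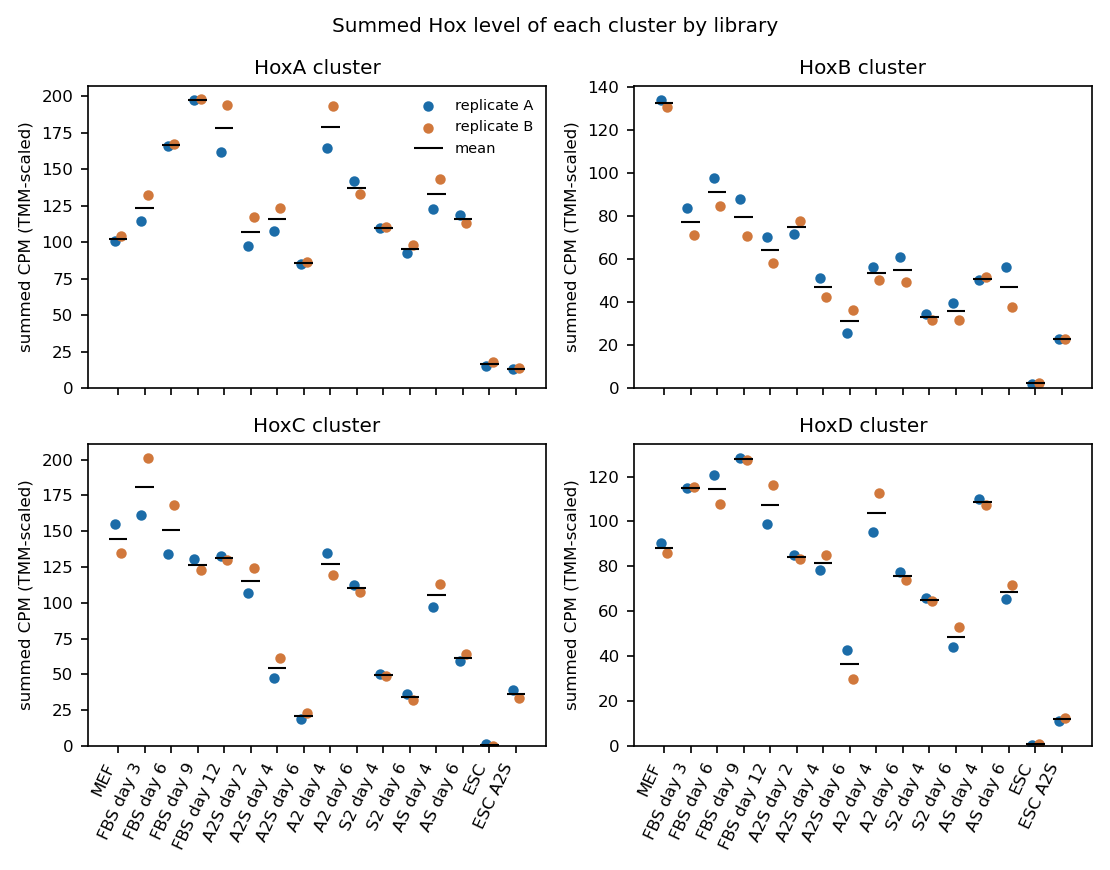
Summed level of each Hox cluster (CPM, TMM-scaled, vertical axis from 0) in every group, with a point per library and a bar at the mean of 2 libraries. HoxC drops from 144.8 CPM in MEFs to 20.9 at A2S day 6 while HoxA goes from 102.3 to 85.7, and in serum at day 12 HoxA reaches 178.0.

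At A2S day 2, 3 members were higher than in MEFs and 7 lower, against 22.8% and 26.9% of all genes (49.7% either way). Hoxd9 was at 6.85 and 6.96 CPM against 1.70 and 1.87 (1.93 ± 0.42, edgeR quasi-likelihood adjusted p = 0.000263). Hoxb2 was at 14.2 and 16.6 against 33.8 and 35.7 (-1.17, edgeR adjusted p = 0.000548), and Hoxb9 at 4.22 and 5.39 against 13.9 and 11.6 (-1.39). Groups were apart for each of these 3 genes, and only these calls held in every fit with a library left out. The count was 6 without A2S day 2 A, and 6 without MEF A. Hoxd11, called lower at -1.03, changed sign to 0.053 with listed cells kept. Hoxc8 at day 2 was at 46.9 and 38.6, which spans its MEF values. Summed fibroblast markers were already at 2570 to 2694 CPM, against 11057 to 12006 in MEFs.

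By day 6, 23 members were lower than in MEFs and 2 higher, against 31.7% and 34.4% of all genes tested (66% either way). The member median was -1.72, that of all genes 0.06. HoxC had 7 of 7 lower, HoxB 8 of 9, HoxD 5 of 7 and HoxA 3 of 9. The largest fitted decline among members with more than 3 UMIs was that of Hoxc8, at 1.56 and 3.92 CPM after 13.2 and 17.8 at day 4, 15.6-fold below MEFs (-3.96 ± 0.30, edgeR adjusted p = 1.15e-12). Its libraries were far below those of MEFs and those of day 4. Hoxc6 was at 4.36 and 6.85 CPM, 6.79-fold lower (-2.76 ± 0.26, edgeR adjusted p = 1.64e-10). Hoxb2 was at 3.74 and 7.18, 6.37-fold lower (-2.67 ± 0.33, edgeR adjusted p = 3.07e-08). Among the posterior genes, Hoxd13 was at 29.3 and 18.6 CPM on day 2, at 10.5 and 15.2 on day 4 and at 6.23 and 4.24 on day 6, 5.57-fold below MEFs (-2.47 ± 0.31, edgeR adjusted p = 3.48e-08). Hoxc9 kept 1 UMI against 152 in MEFs (ratio 0.014, 0.000353 to 0.0794). Hoxd12 had none against 18 and was at least 2.81-fold lower. Further lower members with fitted folds were Hoxb9 (-3.28), Hoxc5 (-3.04), Hoxd11 (-2.92), Hoxb6 (-2.69), Hoxc10 (-2.68) and Hoxb3 (-2.24).

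The members not lower at A2S day 6 lay mostly in HoxA. Hoxa4 was at 8.09 and 8.49 CPM on day 6 against 3.05 and 3.87 in MEFs, 2.40-fold higher (1.24 ± 0.34, edgeR adjusted p = 0.00198). Hoxa3 at 16.2 and 15.0 and Hoxa9 at 20.9 and 23.5 were not called against MEFs. The Hoxa3 libraries overlapped those of MEFs, and both Hoxa9 libraries were a little above them. Hoxa10 fell by 2.18-fold to 11.2 and 9.79 (-1.12, edgeR adjusted p = 0.000113), and Hoxa11 by more (-1.45). In HoxD, Hoxd9 was higher (1.30, edgeR adjusted p = 0.0161). Hoxd8, one of the highest genes in MEFs, was at 37.4 and 45.1 CPM on day 2, 52.0 and 49.8 on day 4 and 24.6 and 18.6 on day 6. Against MEFs it fell by 0.82 on the log2 scale at day 6 (-0.82 ± 0.18, edgeR adjusted p = 0.000177).

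Leaving out single libraries ended the day 6 calls of Hoxa5, Hoxb7, Hoxb8, Hoxc13 and Hoxd9 and no other. Between A2S day 2 and day 6, 17 members were lower and 0 higher in edgeR's test (0 at an unadjusted p under 0.05, 0 in DESeq2, and 24.1% lower and 26.2% higher of all genes, 50.3% either way). Hoxc8 (-3.96) and Hoxc5 (-3.55, from 14.8 and 19.5 CPM to 1.87 and 0.979) fell the most among those with more than 3 UMIs.

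Among the 17 tested members with a matched window (the one with more CpG where a member had several), the 11 lower in A2S day 6 than in MEFs had a median of 14 CpG (6 to 31) and the 6 not lower a median of 6.5 (3 to 18). Hoxd13, shown above, had the most CpG of those that fell, and Hoxa9 and Hoxd4, not lower, had 3 each. Between A2S and A2 at day 6 the medians were 20 for the 8 lower members, Hoxa9 with them, and 8 for the other 9. Only Hoxa10 (20 and 7 CpG) and Hoxd11 (20 and 2) had several windows, and both were lower in each comparison. Taking the window with more CpG could therefore raise the medians of the lower members only. Hoxc8, Hoxb9, Hoxc5 and Hoxc6, all lower in A2S day 6 than in MEFs, had no window, and Hoxc4 alone stood for HoxC. An exon lay in 10 of the 24 windows. No test was run on these counts, which leave out the tested members without a window.

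SGC0946 was the only agent that differed between A2S and A2. At day 4, 12 members were lower in A2S and 1 was higher, against 7.97% and 6.46% of all genes tested (14.4% either way). Fibroblast markers summed to 1252 to 1400 CPM in A2S day 4 and 2492 to 2595 in A2 day 4. Pluripotency markers summed to 277 to 287 and 135 to 149, and epithelial markers to 249 to 321 and 65.5 to 74.1. Their part in the Hox differences was not tested. The lower members were 4 in HoxA, 0 in HoxB, 4 in HoxC and 4 in HoxD, and 7 of the 12 belonged to groups 9 to 13. Hoxd13 was at 10.5 and 15.2 CPM in A2S against 39.3 and 55.7 in A2, 3.69-fold lower (-1.92 ± 0.27, edgeR adjusted p = 6.61e-06). Hoxc6 was at 8.62 and 11.5 against 34.1 and 33.8, 3.37-fold lower (-1.80, edgeR adjusted p = 8.7e-06). Hoxc8 was at 13.2 and 17.8 against 45.3 and 41.1, 2.78-fold lower (-1.54 ± 0.24, edgeR adjusted p = 2.02e-05). None of these groups overlapped. Hoxa10 was at 17.5 and 24.1 against 41.6 and 53.9 (-1.22), Hoxa9 at 26.9 and 35.7 against 45.1 and 55.2 (-0.70). Hoxd10 (-2.49) and Hoxd11 (-1.96) were lower as well, and Hoxd12 had 1 UMI against 14 (ratio 0.0852, 0.00202 to 0.56).

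Hoxd8 went the other way at day 4, with 52.0 and 49.8 CPM in A2S against 25.2 and 23.5 in A2, 2.09-fold higher (1.06 ± 0.18, edgeR adjusted p = 0.000105). Hoxd9, next to it in the cluster, was at 7.81 and 11.0 against 5.26 and 6.42 and was not called (0.67, edgeR adjusted p = 0.302), and Hoxd10, Hoxd11 and Hoxd13 were lower. The calls of Hoxa10, Hoxc6, Hoxc8, Hoxd8 and Hoxd13 held in every fit with a library left out, and those of Hoxd10 and Hoxd11 did not. The number called at day 4 was 6 without A2S day 4 A, 8 without either A2 day 4 library and 7 in DESeq2.

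At day 6, 14 members were lower in A2S than in A2 and 3 higher, against 15.9% and 14.9% of all genes (30.8% either way). The member median was -1.03. Of the 13 tested members of groups 9 to 13, 9 were lower and 0 higher. Hoxc8 was at 1.56 and 3.92 CPM against 40.2 and 40.2, 14.7-fold lower (-3.87 ± 0.32, edgeR adjusted p = 7.81e-11). Hoxd13 was at 6.23 and 4.24 against 36.6 and 28.5, 6.22-fold lower (-2.61 ± 0.32, edgeR adjusted p = 1.64e-07). Hoxa10 was at 11.2 and 9.79 against 42.5 and 42.9, 4.07-fold lower (-2.02 ± 0.23, edgeR adjusted p = 4.09e-08). The groups were apart for all 3 genes, and the A2 libraries overlapped MEFs for Hoxc8 and Hoxd13 and were above them for Hoxa10. Hoxa9 was at 20.9 and 23.5 against 42.8 and 41.3, 1.90-fold lower (-0.92 ± 0.21, edgeR adjusted p = 0.000953), and Hoxc6 4.84-fold lower. Hoxc9 had 1 UMI against 27 (ratio 0.0398, 0.000972 to 0.241), and Hoxd12 none against 12, at least 3.72-fold lower.

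Among the members higher in A2S at day 6 were anterior HoxA genes. Hoxa3 was at 16.2 and 15.0 CPM against 9.47 and 8.70 (0.78, edgeR adjusted p = 0.0246) and Hoxa4 at 8.09 and 8.49 against 4.25 and 4.35 (0.94, edgeR adjusted p = 0.0492). The libraries did not overlap, but leaving out a library ended both calls, and 11 of the 17 calls held throughout. Fibroblast markers summed to 924 to 1152 CPM in A2S day 6 and 2881 to 3107 in A2 day 6, and pluripotency markers to 887 to 1031 and 128 to 146. Their part in the Hox differences was not tested.

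**Figure D3:**
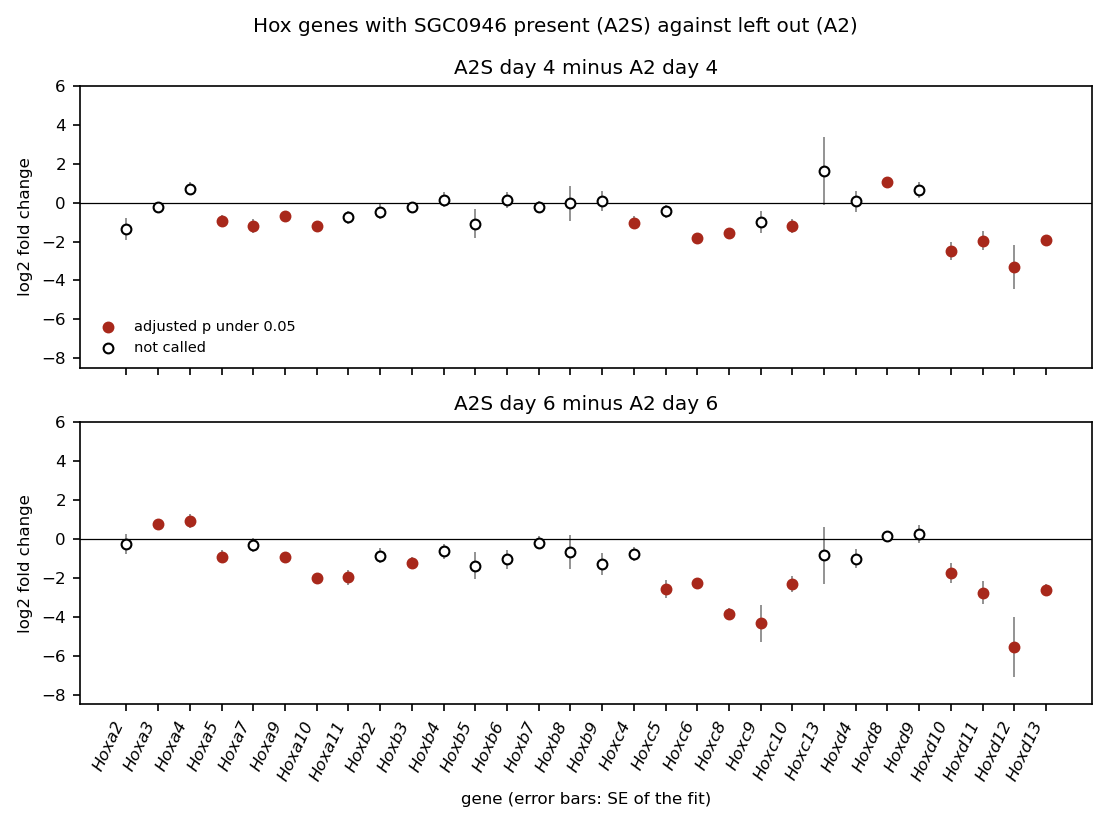
Log2 fold change of A2S against A2 (vertical axis, bars are SE, n = 2 libraries per group) for 30 Hox genes (horizontal axis) at day 4 (upper panel) and day 6 (lower panel), with red points for an edgeR adjusted p under 0.05. Hoxc8, Hoxd13 and Hoxa10 lie below 0 at both days, Hoxd8 lies at 1.06 at day 4, and the fitted values of Hoxc9 (1 UMI) and Hoxd12 (no UMI) in A2S day 6 are no bounds.

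The effect of SGC0946 at day 6 was compared with that at day 4 by an interaction term. It called 3 members, all with a more negative value at day 6, and 0 with a more positive one (1 at an unadjusted p under 0.05, 0 in DESeq2), against 4.46% and 3.04% of all genes (7.5% either way). The difference was -2.33 ± 0.44 for Hoxc8 (edgeR adjusted p = 0.00108), -2.14 ± 0.58 for Hoxc5 (edgeR adjusted p = 0.0209) and -0.90 ± 0.28 for Hoxd8 (edgeR adjusted p = 0.0424). Hoxc8 alone was called whichever library was left out. The count was 1 without A2S day 4 A, without A2S day 6 B or without A2 day 6 A. For Hoxd8 the day 4 excess ended: A2 day 6 was at 21.2 and 17.7 CPM, overlapping A2S day 6.

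S2 lacked ascorbic acid, and at day 4 few genes of any kind, Hox or other, were called between it and A2S. The summed level was 257.9 CPM in S2 at day 4 and 213.7 at day 6, against 298.7 and 174.2 in A2S. At day 4, 2 members were higher in A2S and 1 lower, against 3.27% and 3.36% of all genes (6.63% either way). Hoxd8 was at 52.0 and 49.8 against 31.7 and 25.8 in S2 (0.82, edgeR adjusted p = 0.00474), and Hoxd13 at 10.5 and 15.2 against 21.3 and 29.1 (-1.02, edgeR adjusted p = 0.0362). Hoxc5 was at 10.5 and 7.87 against 4.13 and 3.28 (1.33, edgeR adjusted p = 0.0418). The libraries did not overlap for these 3 genes, but no call held with every library left out in turn: none was made without A2S day 4 A or without S2 day 4 B.

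At day 6, 0 members were called between A2S and S2 in edgeR's test and 0 in DESeq2, against 15.7% of all genes (8.13% higher and 7.61% lower). At an unadjusted p under 0.05, 2 were higher and 6 lower. The nearest to a call was Hoxd13, at 6.23 and 4.24 against 9.24 and 13.8 in S2, with no overlap (edgeR adjusted p = 0.0535). Hoxc8 was at 6.05 and 5.13 CPM in S2. These libraries therefore do not show that the media act alike.

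AS lacked 2i, and its members called against A2S were mostly higher than in A2S. At day 4, 9 members were lower in A2S than in AS and 3 higher, against 16.3% and 13.6% of all genes (29.9% either way). Fibroblast markers summed to 1252 to 1400 CPM in A2S day 4 and 3890 to 4560 in AS day 4. Neural markers summed to 334 to 346 and 1080 to 1353, and pluripotency markers to 277 to 287 and 108 to 168. Their part in the Hox differences was not tested. Hoxc8 was at 13.2 and 17.8 against 37.0 and 48.9 (-1.56 ± 0.24, edgeR adjusted p = 6.23e-06), and Hoxd13 at 10.5 and 15.2 against 56.2 and 33.2 (-1.79, edgeR adjusted p = 8.49e-06). These 2 calls held in every fit with a library left out. The higher members included Hoxa4 (1.0) and Hoxd8 (0.45). The count was 3 without A2S day 4 A, 7 without A2S day 4 B and 5 without AS day 4 B.

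At day 6, 12 members were lower in A2S than in AS and 1 higher, against 20% and 19.2% of all genes (39.2% either way). Hoxc8 was at 1.56 and 3.92 against 13.2 and 19.8, 6.03-fold lower (-2.56 ± 0.37, edgeR adjusted p = 1.84e-06). Hoxa10 was at 11.2 and 9.79 against 38.1 and 35.9 (-1.81, edgeR adjusted p = 2.57e-07). Hoxd13 (-1.89, AS at 17.1 and 22.5) and Hoxc6 (-1.68, AS at 18.4 and 17.5) were lower as well, with no overlap of libraries. Hoxa3 was the 1 higher member, at 16.2 and 15.0 against 9.33 and 5.04 (1.08, edgeR adjusted p = 0.00225). Hoxc9 had 1 UMI against 12 in AS (ratio 0.0908, 0.00212 to 0.613) and Hoxd12 none against 7, at least 2.14-fold lower. The count was 8 without A2S day 6 B and 7 without AS day 6 A, and Hoxa10, Hoxa11, Hoxc6, Hoxc8 and Hoxd13 were called in each fit. Fibroblast markers summed to 3266 to 3318 CPM in AS day 6 against 924 to 1152 in A2S, neural markers to 449 to 505 against 128 to 129, and pluripotency markers to 262 to 334 against 887 to 1031, and their part was not tested. The comparisons of A2S with A2, S2 and AS share the A2S libraries.

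At day 6, A2S and serum could be compared directly. In A2S 21 members were lower and 2 higher than in FBS, against 25.4% and 27.4% of all genes (52.8% either way). Hoxc8 was at 1.56 and 3.92 CPM against 60.1 and 83.3, 26.2-fold lower (-4.69, edgeR adjusted p = 5.63e-14). Hoxd13 was at 6.23 and 4.24 against 47.6 and 40.8 (-3.07, edgeR adjusted p = 1.09e-09), Hoxa10 at 11.2 and 9.79 against 48.7 and 56.6 (-2.31). The serum libraries were the higher ones throughout. The higher members in A2S were again anterior HoxA genes, Hoxa4 at 8.09 and 8.49 against 1.95 and 3.07 (1.77, edgeR adjusted p = 0.000708) and Hoxa3 at 16.2 and 15.0 against 10.3 and 6.58 (0.84, edgeR adjusted p = 0.0113). With single libraries left out, 16 of the 23 calls held, that of Hoxa4 among them, and that of Hoxa3 was lost. Fibroblast markers summed to 924 to 1152 CPM in A2S and 5659 to 5833 in FBS at day 6, and their part was not tested.

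Neither culture reached the ESC level in its last sample. At A2S day 6, 26 members were higher than in ESCs and 0 lower (1 lower at an unadjusted p under 0.05, 0 lower in DESeq2), against 29.6% higher and 25.1% lower of all genes (54.6% either way). A fit of these 4 libraries alone called 15. Hoxa9 had 139 UMIs against none and was at least 37.6-fold higher. Hoxd8 had 136 against 1 (ratio 110, 19.5 to 4385), and Hoxa3 was 6.11-fold higher (2.59). In FBS day 12, 27 members were higher than in ESCs and 0 lower (0 at an unadjusted p under 0.05, 0 in DESeq2), against 33.8% higher and 32.7% lower (66.5% either way), with Hoxc8 at least 105-fold and Hoxa9 at least 83.9-fold higher.

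Cells of the day 6 cultures were divided by a gene that is not a Hox gene. Cells with a UMI of Nanog, a pluripotency factor, were set against cells with no UMI of Nanog or of Epcam, an epithelial adhesion gene. The Hox sum was lower in the Nanog-positive cells of each library. It was 113.5 and 129.1 CPM against 200.7 and 260.2 in A2S, 167.1 and 139.3 against 282.6 and 263.2 in S2, and 102.1 and 167.5 against 360.4 and 359.7 in AS. These classes held 112 and 126 against 42 and 73 cells in A2S, 61 and 45 against 99 and 102 in S2, and 22 and 28 against 186 and 145 in AS.

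**Figure D4:**
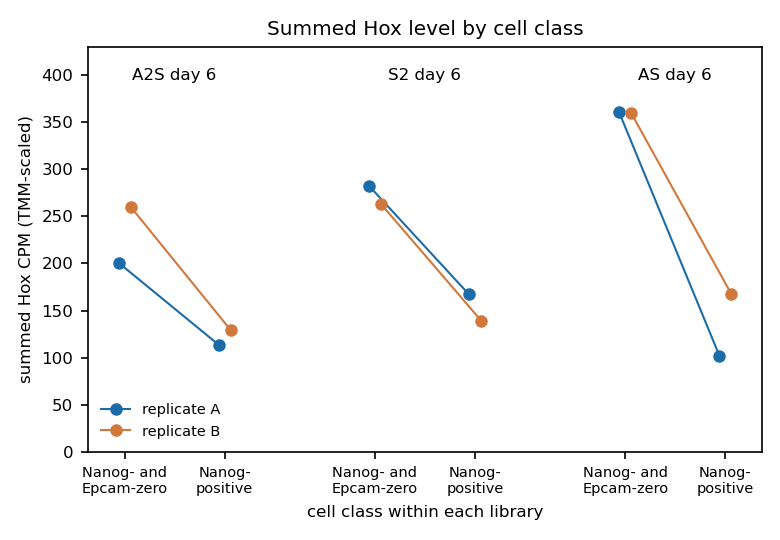
Summed Hox level (CPM, vertical axis from 0) in cells without a Nanog or Epcam UMI and in Nanog-positive cells of A2S, S2 and AS at day 6, with a line per library. All 6 lines go down, from 200.7 and 260.2 to 113.5 and 129.1 CPM in A2S and from 360.4 and 359.7 to 102.1 and 167.5 in AS.

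In a fit of these sums that kept 17 members, 4 were lower in the Nanog-positive cells of A2S (19.7% of genes lower), 1 in S2 (12.6%) and 4 in AS (17%), and 0 were higher in each (18.1%, 9.72% and 14.2%), with 0 higher at an unadjusted p under 0.05 and 0 in DESeq2. The member medians were -0.86, -0.79 and -1.25. In A2S, Hoxa10 was at 4.10 and 5.81 CPM in positive cells against 21.6 and 19.5 (-2.01 ± 0.54, edgeR adjusted p = 0.00345), and Hoxd13 at 3.42 and 0 against 10.8 and 19.5 (-3.16, edgeR adjusted p = 0.00156). Hoxa5 (-1.97) and Hoxc10 (2 UMIs against 12) were the others. In S2 the called member was Hoxa9, at 17.3 and 5.89 against 26.0 and 40.7 (-1.34, edgeR adjusted p = 0.0213). In AS, Hoxd13 had no UMI in positive cells and 124 in the others, and this was the 1 call of the 9 that held with every library left out. Hoxa10 was at 4.86 and 23.6 against 47.1 and 48.5 (-1.72), Hoxa9 at 17.0 and 12.9 against 36.8 and 34.5 (-1.25), and Hoxa11 at 1 UMI against 55. The A2S count was 2 without A and 1 without B, the S2 count 0 without B and the AS count 1 without A. Depth moved with the classes: the median per cell was 12369 and 12478.5 UMIs in Nanog-positive cells of A2S against 10699.5 and 7999 in the others, 14019 and 10945 against 11208 and 10654.5 in S2, and 16865.5 and 14667.5 against 12531 and 11993 in AS. Its part in the difference was not tested.

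The remaining cells of A2S day 6, those with Epcam and no Nanog UMI (76 and 59 cells), had a Hox sum of 265.1 and 237.8 CPM on library totals. Fibroblast markers in these cells summed to 795 and 561 CPM. The class without either gene had Hox sums of 202.1 and 253.4 with fibroblast sums of 5421 and 3261, and the Nanog-positive class 115.1 and 129.9 with 225 and 225. The Epcam-positive sum was thus above that of the class without either gene in A and below it in B. In S2 day 6 it was 198.6 and 220.0 against 269.7 and 261.5, and in AS day 6 289.7 and 228.6 against 355.3 and 352.5, lower in all 4 libraries. No test was run on this.

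ESCs given A2S for 2 days showed a different Hox change, a rise that lay mostly, but not only, in the posterior genes. The Hox sum was 86.1 and 82.9 CPM against 19.3 and 21.4 in ESCs. Groups 9 to 13 held 56.2 CPM, 66.6% of the Hox RNA, against 2.16 in ESCs, and HoxC 36.4 against 0.84. Of 32 tested members 14 were higher and 1 lower, against 25.1% and 21.5% of all genes (46.6% either way). Of the 13 members of groups 9 to 13, 9 were higher. Groups 5 to 8 had 2 higher and 0 lower of 10, and groups 1 to 4 had 3 higher and 1 lower of 9. The 3 higher anterior members were Hoxc4, Hoxb3 (15 UMIs against 1) and Hoxb4 (12 against 1). The member median was 2.69, that of all genes 0.04.

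Hoxc13, the last HoxC gene and one known from hair follicles, had the highest level of the members that rose. It was at 23.4 and 22.4 CPM against 1.26 and 0, or 166 UMIs against 3 (5.19 ± 0.76, edgeR adjusted p = 2.06e-06, ratio 38.9, 13.1 to 190). Its level in MEFs was 2.04 and 1.87, and in A2S day 6 0.311 and 0.326. Hoxc13 was seen in 66 of 374 cells (17.6%, Wilson 95% interval 14.1% to 21.8%) and in 63 of 295 (21.4%, 17.1% to 26.4%). In untreated ESCs it was seen in 3 of 138 (2.17%, 0.742% to 6.20%) and in 0 of 164, which by a floor of 3 counts allows a share of cells with a UMI of up to 1.83%. Treated cells were shallower, with medians of 10112 and 12251 UMIs against 16461.5 and 14853. Intervals on shares cover counting error only.

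Hoxb9, a thoracic gene, was at 12.5 and 14.6 CPM with 98 UMIs against none, at least 23.0-fold higher (edgeR adjusted p = 6.2e-09), and was seen in 10.7% and 14.9% of cells. Hoxc4 was at 8.99 and 5.60 with 53 UMIs against 1 (ratio 37.2, 6.4 to 1498, edgeR adjusted p = 1.16e-05). Hoxb13, the last HoxB gene and little expressed elsewhere in the series, had 27 UMIs against 4 (2.20, edgeR adjusted p = 0.0364). Hoxc5 and Hoxd9 had 21 UMIs each against none, both at least 4.92-fold higher, Hoxd8 20 against 1 (ratio 14.1, 2.25 to 582) and Hoxa10 20 against 1. Hoxd13 was at 3.00 and 4.20 (ratio 6.09, 1.87 to 31.4). The 1 lower member was an anterior HoxA gene: Hoxa4 went from 12 UMIs to none, at least 5.69-fold lower (edgeR adjusted p = 0.000124).

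**Figure D5:**
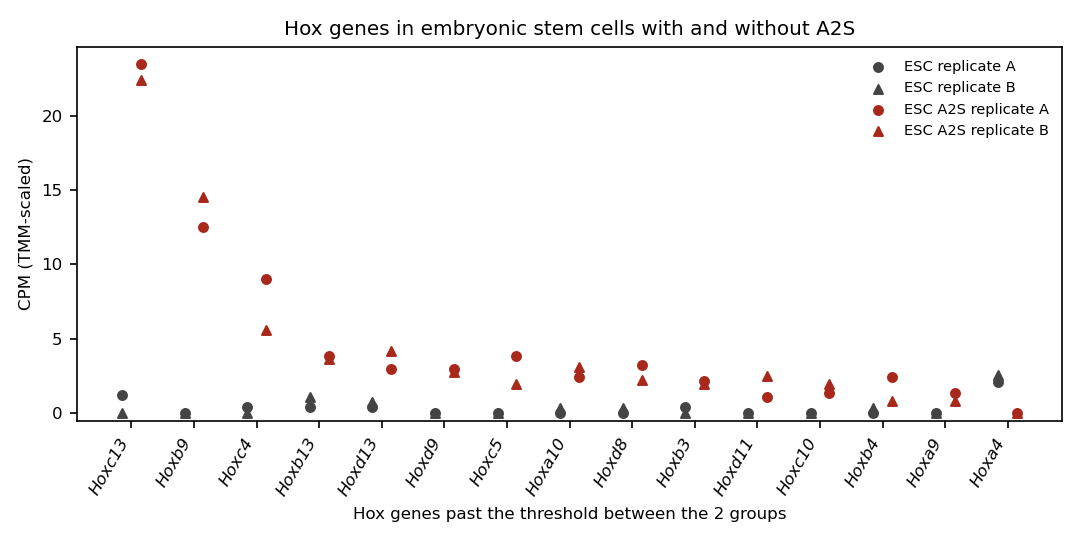
Levels (CPM, TMM-scaled) of the 15 Hox genes called between ESCs and ESCs given A2S for 2 days, with a point for each of 2 libraries per group. Hoxc13 and Hoxb9 stand out at 23.4 and 22.4 and at 12.5 and 14.6 CPM in treated cells, and Hoxa4 is the 1 gene that is lower there.

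Levels in feeder cells differed among these genes. Listed cells were 14.2% and 10.9% of barcodes in the treated and 3.50% and 3.53% in the untreated ESC libraries. On CPM of library totals, Hoxc13 was at 23.3 and 21.6 and Hoxb9 at 12.4 and 14 in the 357 and 288 Nanog-positive cells of the treated ESC libraries, and listed feeder cells of the 5 libraries had 0 to 4.34 and 0 to 4.22. Other called members were high in the 62 listed cells of treated ESC A, with Hoxd13 at 130.1 CPM against 2.94 in the kept cells, Hoxa10 at 52.0 against 2.41 and Hoxd11 at 11.6 against 1.07. The part that feeder cells missing from the list have in the calls of these 3 genes was not tested. Fibroblast markers summed to 68.6 to 86.9 CPM in treated and 14.4 to 16.4 in untreated ESCs, and pluripotency markers to 4917 to 4998 and 4917 to 5007. The calls of Hoxa4, Hoxa10, Hoxb9, Hoxc4, Hoxc5, Hoxc13, Hoxd8 and Hoxd9 held in every fit with a library left out. The count was 9 without ESC B and 4 in a fit of these 4 libraries alone.

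Known inputs and partners of Hox genes were read in the treated ESCs as well, beside 25.1% of all genes higher and 21.5% lower. Of the upstream list, which holds Cdx, retinoic acid and Lin28 genes, 2 were higher and 7 lower of 16 tested. Its genes summed to 219 to 238 CPM against 609 to 638 in untreated ESCs. Cdx1, a caudal-type factor and 1 of the 2 higher genes, was at 28.1 and 28.3 CPM against 2.94 and 1.48 (3.67 ± 0.52, edgeR adjusted p = 9.9e-06). Lin28a was at 25.9 and 23.5 against 242 and 244 (-3.30). Of 9 TALE cofactors, the homeodomain partners of HOX proteins, 3 were higher and 3 lower. They summed to 143 to 151 CPM against 179 to 195. Among the higher ones, Meis2 was at 48.8 and 53.8 against 3.78 and 6.28 (3.32, edgeR adjusted p = 1.1e-13). The part of these genes in the Hox change was not tested.

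Hox RNA was also read cell by cell. With each cell thinned to 2000 UMIs and shallower cells left out, a Hox UMI was seen in 47.3% (Wilson 95% interval 41.7% to 53.0%) and 47.6% (42.9% to 52.3%) of MEFs. Between 0 and 59 cells of a library were left out as shallower. The share was 46.5% and 53.2% at A2S day 2, 46.1% and 47.4% at day 4 and 30.7% (25.0% to 37.1%) and 23.9% (19.0% to 29.8%) at day 6, with the day 6 libraries below all earlier ones. It was 54.9% to 63.7% in the serum libraries. ESCs, which keep most Hox genes silent and so serve as the background, had 2.21% (0.753% to 6.28%) and 2.48% (0.970% to 6.21%), and treated ESCs 16.1% and 15.8%. Unthinned, with median depths of 22796 and 19102 UMIs in MEFs and 16461.5 and 14853 in ESCs, the shares were 88.3% and 88.4% in MEFs, 66.1% and 59.3% at A2S day 6, 21.7% and 18.3% in ESCs, and 49.2% and 57.3% in treated ESCs. Posterior genes of groups 9 to 13 were seen in 10.2% and 9.62% of thinned treated ESCs and in 0% and 0.621% of ESCs.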

How the data were processed

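The authors deposited UMI counts, whole numbers for each gene in each barcode that passed a knee filter, from droplet capture of transcript 3' ends (ddSEQ, SureCell kit, per the labels). Per the submitters' processing notes, bcl2fastq 2.19 and STAR were used, with mm10 as the genome. For the annotation, counting program and strand setting, nothing is stated in the sources used here. Barcodes on a deposited list of irradiated feeder MEFs were left out, and 2 columns of that list were not used. Doublets were not called, so a cell with UMIs of unlike Hox genes can be 2 cells. Within each group the 2 libraries differed beyond sampling noise (chi-square per degree of freedom 1.59 to 8.1), and none was counted as a copy.

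Sums of counts over kept cells, 1 per library, went into edgeR's quasi-likelihood test (edgeR 4.0.16 in R 4.3.3, with filterByExpr and TMM factors), in 1 fit of all 32 libraries, with Benjamini-Hochberg adjustment over all genes tested. There were 17 comparisons of groups and 1 interaction. A second fit took sums per library and Nanog class, with a term per library, in groups with at least 20 cells in each class of each library. The test was tried on simulated counts with known changes. Alternatives were DESeq2 1.42.0, RLE factors, no filter on counts, a block for the replicate letter, keeping the listed cells, a minimum of 1000 UMIs per cell, a fit of only the groups compared, leaving out single libraries, and for shares of cells thinning to 1000 or 5000 UMIs or none. Of 2 against 2 libraries an exact permutation test gives no p under 0.333, so shares and sums were not tested.

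Members and gene lists were chosen with earlier results of these data known. Any member could be named, those highest in MEFs first, with up to 6 called members of the largest fold each way per comparison described as the leading ones. Of the other lists (TALE cofactors, Polycomb, Trithorax and MLL, upstream inputs, cluster noncoding genes, other positional factors), up to 2 called members each way were named by smallest p. The text describes further members for their cluster or paralog group. Positions are from GENCODE M21 and promoter windows from RefSeq. Other tools were Python 3.11.15, numpy 2.4.6, pandas 2.3.3, scipy 1.17.1 and matplotlib 3.10.9. Some results for single genes are not reported here.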

Additional observations from a re-analysis of the deposited data

Results flagged for a closer look

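The effect of SGC0946, as A2S against A2, differed between day 6 and day 4 for 3 Hox genes by an interaction term in edgeR's quasi-likelihood test. The day 6 effect minus the day 4 effect was -2.33 for Hoxc8, -2.14 for Hoxc5 and -0.90 for Hoxd8, on the log2 scale. For Hoxc8 and Hoxc5 the A2 libraries at day 6 were at 40.2 and 40.2 and at 9.47 and 8.15 CPM, and the A2S libraries at 1.56 and 3.92 and at 1.87 and 0.979.

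Hoxd13 was high in cells on the feeder list, which enter no comparison. Its median over 5 libraries with at least 50 listed cells was 189.6 CPM, against 23.3 and 26.0 in the MEF libraries, on CPM of library totals.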

How the results depend on the processing

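With DESeq2, the number of Hox genes called was 4 for FBS day 3 against MEFs, 5 for A2S day 2 against MEFs, 4 for FBS day 12 against day 3, 7 for A2S against A2 at day 4, 1 for A2S against S2 at day 4, 6 for A2S against AS at day 4 and 1 for the interaction. In the Nanog classes it was 2 in A2S, 0 in S2 and 1 in AS. With listed cells kept it was 14 for FBS day 3 against MEFs and 4 for FBS day 12 against day 3, and Hoxd11 at A2S day 2 against MEFs turned to 0.053. Between A2S and S2 at day 6 it was 1 with no count filter, with listed cells kept or with cells of 1000 UMIs or more, and 2 in a fit of those groups alone. That fit called 4 between A2S and AS at day 4, 4 in treated ESCs, and 15 between A2S day 6 and ESCs. It has fewer samples to estimate the spread. For the others the cause was not tested.

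With single libraries left out, where the lone library is assumed to vary like the other groups, the number called ran from 5 to 7 for FBS day 3 and from 6 to 7 for A2S day 2 against MEFs, and from 5 to 8 for FBS day 12 against day 3. Against A2 at day 4 it ran from 6 to 9, against S2 from 0 to 2 and against AS from 3 to 10. Against AS at day 6 it ran from 7 to 15, in treated ESCs from 9 to 12, for the interaction from 1 to 3, and in the classes from 1 to 2 (A2S), 0 to 1 (S2) and 1 to 3 (AS). Replicate letters did not pair the samples (0 of 120 pairs of groups correlated over 0.1). With the replicate block, 257 of 264 calls remained. Over single genes and settings, 6120 values kept direction and side of the threshold, 65 gained and 325 lost a call, and 1 changed sign. Depth limits members with few UMIs, such as Hoxb13, Hoxc13 and Hoxd12.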

Other observations

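Genes around and upstream of the Hox clusters were counted against all genes tested, of which 34.4% were higher and 31.7% lower at A2S day 6 than in MEFs, and 26% and 28.7% at FBS day 12. Of 4 tested noncoding members of the clusters, 2 were higher and 2 lower at A2S day 6 than in MEFs, and 3 were higher and 0 lower at FBS day 12. Hotairm1, a noncoding RNA of the HoxA cluster, was at 18.1 and 15.7 CPM at A2S day 6 against 8.15 and 8.27 in MEFs (1.04, edgeR quasi-likelihood adjusted p = 0.00015). At FBS day 12 it was at 24.5 and 21.7 (1.48). Hoxa11os, antisense to Hoxa11, was at 24.0 and 31.2 CPM at FBS day 12 against 4.24 and 8.0 in MEFs (2.14). Between A2S and A2 at day 6 it was at 4.36 and 1.96 against 15.7 and 17.1 (-2.35). As the counting's strand setting is not given, reads of Hoxa11os and Hoxa11 cannot be told apart.

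Of 9 TALE cofactors, 1 was higher and 6 lower at A2S day 6 than in MEFs, beside the same shares of all genes. Meis1 was at 19.0 and 11.7 CPM against 51.4 and 44.7 (-1.63), while Pbx4 was at 8.72 and 8.49 against 0.509 and 1.60 (2.91). Of 30 Polycomb genes 13 were higher and 6 lower, with Jarid2 at 107 and 129 against 11.7 and 12.3 (3.29) and Cbx7 at 44.5 and 52.2 against 1.36 and 1.33 (5.13). Of 12 Trithorax and MLL genes 8 were higher and 1 lower. Of 51 tested positional transcription factors other than Hox genes, 2 were higher and 38 lower at A2S day 6 than in MEFs, and 4 higher and 25 lower than in A2 day 6, where 14.9% of all genes were higher and 15.9% lower. Tbx15, a limb and skeletal factor, was at 33.0 and 24.8 CPM in A2S against 104 and 91.3 in A2 (-1.75).

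In ESCs given A2S, 11 of 30 Polycomb genes were higher and 4 lower than in untreated ESCs, beside 25.1% and 21.5% of all genes. Phc1 was at 114 and 115 CPM against 495 and 537 (-2.17). Of 51 tested positional transcription factors other than Hox genes, 11 were higher and 5 lower. Tbx3, of that list, was at 374 and 385 against 26.5 and 24.4 (3.90).

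In single MEFs thinned to 2000 UMIs, a UMI of groups 9 to 13 was seen in 8.51% and 11.4% of the cells with a UMI of groups 1 to 4, which is 4 of 47 and 8 of 70 cells. It was seen in 20.3% and 18.8% of the other cells. Other groups went either way. The shares were 15.4% and 12.9% against 19.5% and 25.2% at A2S day 2. At S2 day 6 they were 31.0% and 17.9% against 11.1% and 14.3%. No test was run on this.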
